A study of Mus musculus with 9 samples.

Results

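Mouse hearts were examined for 10 regulators of cardiac gene expression known for their part in hypertrophy: serum response factor (Srf) and its coactivator myocardin (Myocd), the zinc finger factors Gata4 and Gata6, the MADS-box factors Mef2a, Mef2c and Mef2d, the homeobox factor Nkx2-5, the bHLH factor Hand2 and the T-box factor Tbx20. They were chosen by gene name, with earlier results of these data known. All 10 were found in both deposited gene tables, among the 13646 genes that the tables share. Total RNA was sequenced from hearts of C57BL/6 mice, 3 in each of 3 groups, and each library is a separate mouse. TAC+PUE mice received puerarin, an isoflavone of kudzu root, by intraperitoneal injection at 100 mg/kg per day until the hearts were taken, starting 3 days before transverse aortic constriction (TAC), a surgical narrowing of the arch of the aorta against which the left ventricle must pump. TAC mice had the same surgery with saline injections, and sham mice had saline and surgery without the narrowing. All mice were male and are labelled as 10 weeks old, and hearts were taken 21 days after surgery. Injections began before surgery and no group had puerarin without TAC, so an effect of puerarin on the unloaded heart was not measured. The labels name heart without a chamber.

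These factors act together in heart muscle. SRF binds CArG boxes and, with myocardin or its relatives, drives genes of the contractile apparatus and the actin cytoskeleton, while MEF2 factors serve muscle genes and are held in check by class IIa histone deacetylases that stress signals release. GATA4 and NKX2-5 bind the promoters of natriuretic peptide and other cardiac genes as partners, GATA6 overlaps with GATA4 in function, and HAND2 and TBX20 are needed for the forming heart and, for TBX20, for the adult one. In the loaded heart they are known for their part in the return of fetal genes, and much of their control is by protein modification and location, which RNA does not show.

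Expression is given in FPKM, fragment numbers adjusted for gene length and for the size of the library. The share of total FPKM taken by mitochondrially encoded mRNAs was 14.2 to 25.9% in TAC+PUE hearts, 2.81 to 7.04% in TAC hearts and 31.6 to 42.9% in sham hearts, and 2 rRNA-like transcripts took 1.11 to 2.52%, 4.81 to 7.50% and 0.519 to 1.11%. Because FPKM is relative, such shares move all other genes of a library together. For TAC against sham the median gene had a log2 fold change of −0.12 as deposited and of 0.02 after median-ratio scaling. It had 0.30 with the rRNA-like transcripts removed and −0.23 with mitochondrial mRNAs removed as well. In both of these scalings the libraries were also brought to the same total FPKM after the removal. As deposited the totals ran from 239798 to 251385 FPKM in TAC+PUE, 187473 to 220617 in TAC and 259491 to 287871 in sham hearts. Shifts named for a removal therefore hold both the removal and the equal totals. The same 4 scalings gave 0.24, −0.05, −0.01 and 0.20 for TAC+PUE against TAC. The median of all genes is therefore given for each comparison, and the scalings that change a member's call are named beside it. All 8 cardiomyocyte markers were measured in every library, with a summed 5603 to 6038 FPKM in TAC+PUE, 6865 to 8477 in TAC and 5569 to 6102 in sham. They did not move as one: in TAC against sham 3 rose in limma at an adjusted p under 0.05 and 3 fell. By log2 fold change Tnni3 (1.09), Tnnt2 (0.72) and Myh6 (0.47) rose, and Pln (−2.09), Ttn (−1.08) and Ryr2 (−0.67) fell. The 7 atrial markers summed to 630 to 3811 FPKM in TAC+PUE, 597 to 942 in TAC and 76.9 to 82.0 in sham, with Sln and Bmp10 listed at 0 in some libraries. Most of each sum was Nppa, a natriuretic peptide gene, at 576.9 to 2756, 477.6 to 620.6 and 70.4 to 74.9 FPKM. In TAC replicate 2 Nppa was 587.0 of the 597.1 FPKM. Myl7, an atrial myosin light chain, reached at least 100 FPKM in TAC+PUE replicates 2 and 3 and in TAC replicate 3. It stood at 79.8 FPKM in TAC replicate 1 and 27.4 FPKM in TAC+PUE replicate 1. The other hearts had 1.60 FPKM in TAC replicate 2 and 0.86 to 1.07 FPKM in sham. A heart left by the limit of 100 FPKM can thus still lie well above the sham hearts.

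In TAC+PUE hearts Nkx2-5 was the highest member at a mean of 34.3 FPKM, and the 7 highest, down to Tbx20 at 18.3 FPKM, followed each other with overlapping ranges. In TAC hearts Nkx2-5 (52.6 FPKM) and Srf (36.9 FPKM) stood above all other members, and neither range overlapped with the next in order. In sham hearts Mef2d (22.4 FPKM), Nkx2-5 (21.7 FPKM), Hand2, Srf, Gata6, Gata4 and Tbx20 (14.7 FPKM) followed each other with overlapping ranges. Mef2c was the lowest member in every group, at means of 2.43 FPKM in TAC+PUE, 1.06 FPKM in TAC and 2.97 FPKM in sham, and Mef2a came next above it without overlap. The hearts were taken as bulk tissue, so fewer cells of a type and less RNA per cell cannot be told apart.

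**Figure D1:**
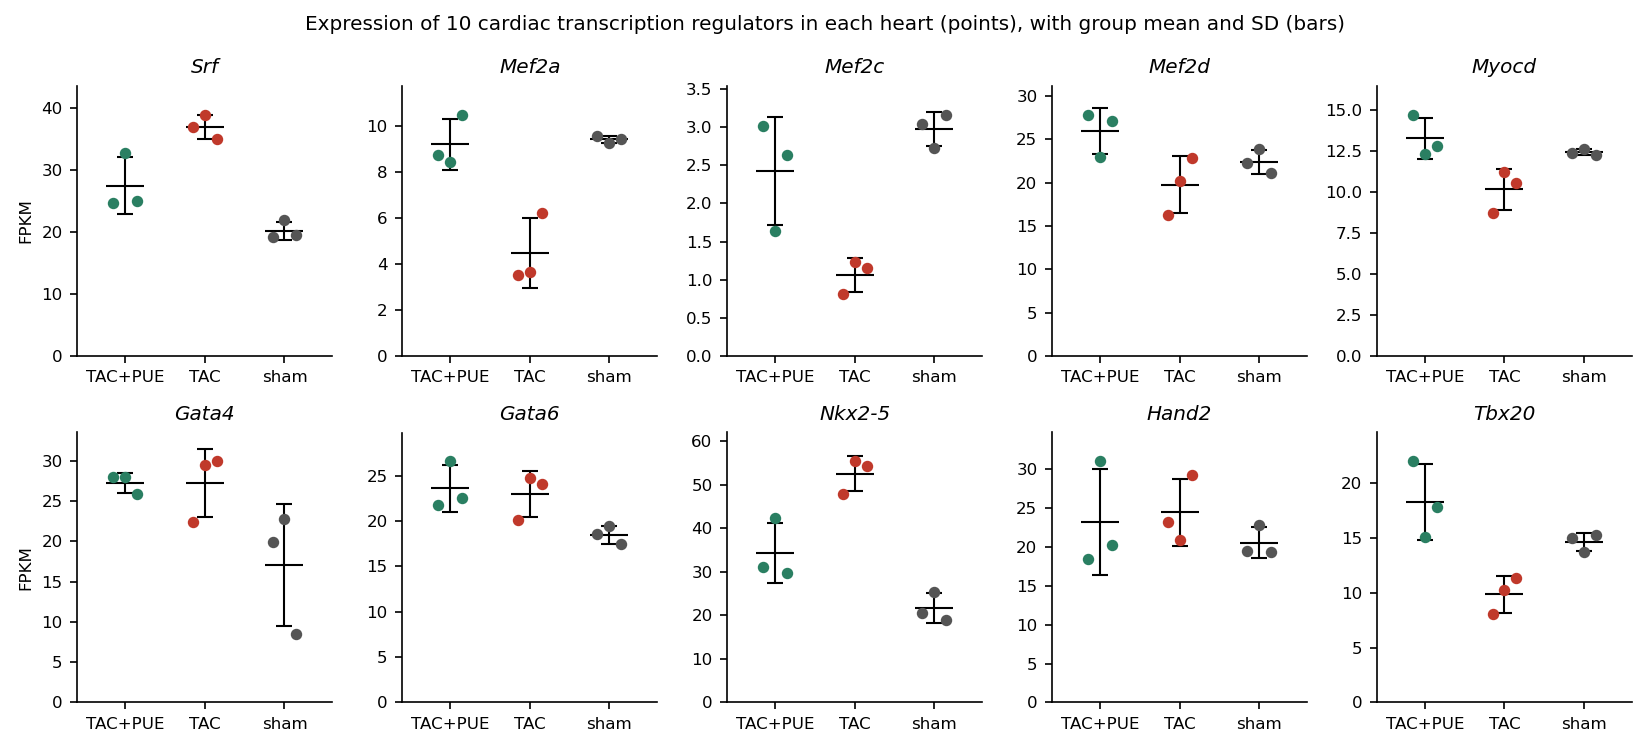
FPKM of each of the 10 members (vertical axes, from 0) in TAC+PUE, TAC and sham hearts; points are single hearts, the wide bar is the group mean and the error bar the SD (n = 3). Srf and Nkx2-5 are highest in the 3 TAC hearts, and Mef2a, Mef2c, Myocd and Tbx20 are lowest in them.

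The first comparison, TAC against sham, asks what pressure load did. Of the 10 members 3 rose and 3 fell in TAC hearts at an adjusted p under 0.05 in limma, and 4 did not pass. Of all 11687 genes tested 25.3% rose and 37.7% fell, so a share of 6 in 10 members called was close to the 63% of all genes. At an unadjusted p under 0.05, 4 members were higher and 3 lower, beside 27% and 39.6% of all genes. The members' median log2 fold change was 0.02, beside −0.12 for all genes. With the rRNA-like transcripts removed the split over all genes turned to 5746 higher and 2410 lower, against 2955 and 4410 as deposited. TAC and sham ranges did not overlap for 7 members, 3 of them higher and 4 lower in TAC hearts, and 70.3% of all genes were apart in this way (28.4% higher and 41.9% lower).

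Srf, which binds CArG boxes of contractile and immediate early genes, stood at 36.9, 38.8 and 35.0 FPKM in TAC hearts, against 19.1, 21.8 and 19.5 FPKM in sham hearts. Every TAC heart was above every sham heart, with a TAC mean 1.83 times the sham mean. Its log2 fold change of 0.84 (SE 0.11, adjusted p = 1.84e-04) lies 0.96 above the median of all genes, and Srf rose under all 4 scalings and without any single heart. Myocd, which encodes the coactivator that SRF needs on many muscle genes, stood at 8.75, 11.2 and 10.5 FPKM in TAC hearts, against 12.4, 12.6 and 12.3 FPKM in sham hearts. The ranges were apart, but the log2 fold change of −0.27 (SE 0.12) did not pass (adjusted p = 0.076). With the rRNA-like transcripts removed it was 0.19, and with mitochondrial mRNAs removed as well it passed at −0.39.

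The promoter of Srf is shown because SRF has CArG boxes in it, so that the gene is among the known targets of its own product. The stretch comes from RefSeq on GRCm38.p6, chr17:46556163-46556412 on the minus strand, and runs from 250 bases before the start site of the window to the base before it. It lies within the annotated span of the gene, 46546838 to 46558267, so this start site is not the outermost. Capitals mark the 2 CArG boxes, at −82 to −73 and −62 to −53.
Srf: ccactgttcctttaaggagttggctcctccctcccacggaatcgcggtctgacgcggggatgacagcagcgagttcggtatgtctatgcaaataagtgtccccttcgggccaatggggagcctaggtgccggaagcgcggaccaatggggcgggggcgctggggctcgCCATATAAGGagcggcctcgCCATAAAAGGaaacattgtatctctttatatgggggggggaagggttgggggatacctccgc
Of 32851 RefSeq promoter windows, which run from 250 bases before to 50 after the start site, 1.63% hold a CArG box, which reads the same on both strands. RefSeq windows were matched for 7 of the 10 members, 9 windows in all. Myocd, Gata4 and Gata6 had no window, so their promoters were not searched for any motif. The Srf window was the only one of the 9 with a CArG box. A match of letters is a description and does not show that SRF was bound in these hearts.

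Nkx2-5 had the largest rise among the members. It stood at 48.0, 55.4 and 54.4 FPKM in TAC hearts, against 20.6, 25.5 and 18.9 FPKM in sham hearts. All 3 TAC hearts lay far above the sham hearts, and the TAC mean was 2.43 times the sham mean. The log2 fold change was 1.25 (SE 0.14, adjusted p = 6.76e-05), above 98.1% of all genes tested, and it passed under all 4 scalings and without any single heart. Gata4, which binds natriuretic peptide promoters with NKX2-5, stood at 22.4, 29.5 and 29.9 FPKM in TAC hearts, against 19.9, 22.8 and 8.52 FPKM in sham hearts. The groups overlapped, and sham replicate 3 was far below the other sham hearts. Its log2 fold change of 0.74 (SE 0.29) passed narrowly (adjusted p = 0.045). Without sham replicate 3 it was 0.33 (adjusted p = 0.13), without TAC replicates 1, 2 or 3 it did not pass (0.87, 0.68 and 0.67), and with rRNA-like and mitochondrial transcripts removed the adjusted p was 0.090. A pseudocount of 0.1 or no filter on low genes also ended the call (adjusted p = 0.054 and 0.053).

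Gata6, the relative of Gata4, stood at 20.1, 24.7 and 24.1 FPKM in TAC hearts, against 18.6, 19.4 and 17.5 FPKM in sham hearts. Each TAC heart was above each sham heart, by less than for Srf. A log2 fold change of 0.29 (SE 0.12) did not pass (adjusted p = 0.058). It passed at 0.78 with the rRNA-like transcripts removed, at 0.45 when scaled by median ratios, and at 0.38 without TAC replicate 1 (adjusted p = 0.0054). Hand2, a bHLH factor of the developing ventricles, stood at 23.2, 20.8 and 29.2 FPKM in TAC hearts, against 19.4, 22.8 and 19.3 FPKM in sham hearts, and the groups overlapped (0.23, SE 0.14, adjusted p = 0.19). It passed at 0.71 with the rRNA-like transcripts removed and at 0.39 when scaled by median ratios.

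Within the MEF2 family 2 of 3 genes fell. Mef2a, which mouse heart muscle needs for normal mitochondria, stood at 3.53, 3.67 and 6.24 FPKM in TAC hearts, against 9.58, 9.28 and 9.44 FPKM in sham hearts. TAC replicate 3 was the highest TAC heart and still below every sham heart. The TAC mean fell by 52.5%, with a log2 fold change of −0.96 (SE 0.17, adjusted p = 8.79e-04). Mef2c, which the embryonic heart requires, stood at 0.81, 1.23 and 1.15 FPKM in TAC hearts, against 3.04, 2.72 and 3.16 FPKM in sham hearts. The groups were well apart at a low level, and the TAC mean fell by 64.2%. The log2 fold change was −0.95 (SE 0.12, adjusted p = 1.38e-04), a value that the added pseudocount of 1 holds down at this level. Both falls passed under all 4 scalings and without any single heart. Mef2d, a mediator of stress signalling in the adult mouse heart, stood at 16.2, 20.2 and 22.8 FPKM in TAC hearts, against 22.3, 23.9 and 21.1 FPKM in sham hearts. The groups overlapped, the log2 fold change was −0.18 (SE 0.14, adjusted p = 0.27). Without the rRNA-like transcripts it was 0.30, and without mitochondrial mRNAs as well it passed at −0.31.

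The Mef2a window is shown because it was the only one of the 9 with a MEF2 site, a motif that 0.557% of the 32851 windows hold on either strand. The 30 bases come from RefSeq on GRCm38.p6, chr7:67372841-67372870 on the minus strand, and the capitals mark the site, which spans the start site of the window from −2 to 7. This start site lies within the annotated span of the gene, 67231163 to 67376456, and is not its outermost.
Mef2a: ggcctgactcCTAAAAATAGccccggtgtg
The match says nothing of binding in these hearts. The windows of Mef2c and Mef2d had no MEF2 site. The other motifs searched on both strands were AGATAA for GATA factors, TNAAGTG for NKX2-5 and AGGTGT for T-box factors, which 11.2%, 11.5% and 13.7% of all windows hold. AGATAA was found in the Hand2 window, AGGTGT in 1 of the 3 Mef2c windows and TNAAGTG in none of the 9.

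Tbx20, a T-box factor that the adult mouse heart needs for its function, stood at 8.04, 10.3 and 11.3 FPKM in TAC hearts, against 15.1, 13.7 and 15.2 FPKM in sham hearts. All TAC hearts were below all sham hearts, and the TAC mean fell by 32.6%. In limma this was −0.54 on the log2 scale (SE 0.14, adjusted p = 0.0064). It held without any single heart, but with the rRNA-like transcripts removed it was −0.07 (adjusted p = 0.56).

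**Figure D2:**
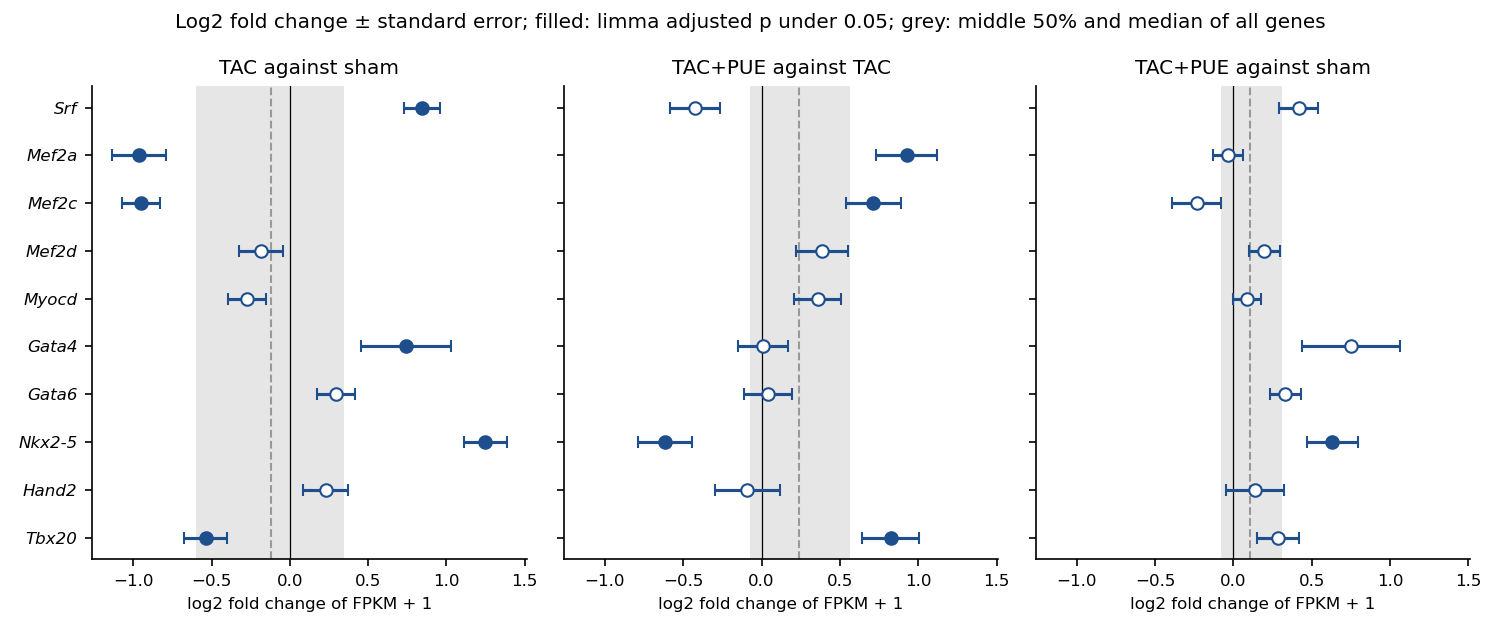
Log2 fold change of FPKM + 1 (horizontal axis) of each member with its standard error, for TAC against sham, TAC+PUE against TAC and TAC+PUE against sham; filled points have a limma adjusted p under 0.05, and the grey band and dashed line are the middle 50% and the median of all genes tested. Nkx2-5 and Srf lie right of the band in the first comparison and left of it in the second, and Mef2a and Mef2c lie on the opposite sides.

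The second comparison, TAC+PUE against TAC, asks what puerarin changed in the loaded heart. Of the 10 members 3 rose, 1 fell and 6 did not pass in limma. Of all 11788 genes tested 32.9% rose and 5.45% fell, 38.4% in all, near the 4 in 10 of the members. At an unadjusted p under 0.05, 5 members were higher and 2 lower, beside 40% and 8.31% of all genes. The members' median log2 fold change was 0.20, beside 0.24 for all genes. Scaled by median ratios, 2111 genes were higher and 2648 lower, and without the rRNA-like transcripts 2303 and 2201, against 3883 and 642 as deposited. The groups were apart for 7 members, 5 higher and 2 lower in TAC+PUE hearts, and for 53.5% of all genes (43.3% higher and 10.1% lower). Both comparisons use the same 3 TAC hearts, so a value that is high or low there enters them with opposite signs, and the 2 comparisons are not independent of each other.

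The 3 members that rose in TAC+PUE hearts were Mef2a, Mef2c and Tbx20. Mef2a stood at 8.74, 8.44 and 10.5 FPKM in TAC+PUE hearts, against 3.53, 3.67 and 6.24 FPKM in TAC hearts. Each treated heart was above each untreated TAC heart, and the TAC+PUE mean was 2.06 times the TAC mean. This gave a log2 fold change of 0.93 (SE 0.19, adjusted p = 0.0058). Mef2c stood at 3.01, 1.63 and 2.63 FPKM in TAC+PUE hearts, against 0.81, 1.23 and 1.15 FPKM in TAC hearts. TAC+PUE replicate 2 was the lowest treated heart, close to the highest TAC heart. The log2 fold change was 0.71 (SE 0.18, adjusted p = 0.010), and without TAC replicate 1 it was 0.62 (adjusted p = 0.055). Tbx20 stood at 22.0, 15.1 and 17.8 FPKM in TAC+PUE hearts, against 8.04, 10.3 and 11.3 FPKM in TAC hearts. The groups were apart, with a TAC+PUE mean 1.85 times the TAC mean and a log2 fold change of 0.82 (SE 0.18, adjusted p = 0.0066). All 3 rises passed under the 4 scalings, at 0.63 to 0.93 for Mef2a, 0.50 to 0.71 for Mef2c and 0.49 to 0.82 for Tbx20.

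Nkx2-5 was the 1 member that fell. It stood at 31.0, 42.3 and 29.7 FPKM in TAC+PUE hearts, against 48.0, 55.4 and 54.4 FPKM in TAC hearts. All treated hearts were below all TAC hearts, with TAC+PUE replicate 2 nearest to them. The TAC+PUE mean fell by 34.7%, and the log2 fold change was −0.62 (SE 0.17, adjusted p = 0.017), with 2.77% of all genes tested below it. It passed under all 4 scalings, at −0.96 to −0.62. It did not pass without TAC+PUE replicate 1 (−0.55, adjusted p = 0.059), without TAC+PUE replicate 3 (−0.52, adjusted p = 0.077) or without TAC replicate 2 (−0.58, adjusted p = 0.051). Without the 3 hearts high in Myl7 only TAC+PUE replicate 1 is left beside 2 TAC hearts, and the value was −0.71, from which no call can be drawn.

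Srf lay just outside the threshold. It stood at 24.7, 32.7 and 24.9 FPKM in TAC+PUE hearts, against 36.9, 38.8 and 35.0 FPKM in TAC hearts. The ranges did not overlap, and TAC+PUE replicate 2 was the highest treated heart, as for Nkx2-5. Its log2 fold change was −0.42 (SE 0.16, adjusted p = 0.055). It passed under the other 3 scalings, at −0.77 to −0.47, with eBayes without trend (adjusted p = 0.0498), in the joint fit of all 9 hearts and without TAC+PUE replicate 2 (−0.55, adjusted p = 0.021). Myocd stood at 14.7, 12.3 and 12.8 FPKM in TAC+PUE hearts, against 8.75, 11.2 and 10.5 FPKM in TAC hearts. The groups were apart, yet the log2 fold change of 0.36 (SE 0.15) did not pass (adjusted p = 0.085), and it was 0.03 with median-ratio scaling.

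Mef2d stood at 27.8, 22.9 and 27.1 FPKM in TAC+PUE hearts, against 16.2, 20.2 and 22.8 FPKM in TAC hearts. The lowest treated heart only just exceeded the highest TAC heart. The log2 fold change was 0.38 (SE 0.17, adjusted p = 0.090), and Mef2d and Myocd passed only in the joint fit of the 9 hearts, with adjusted p of 0.039 and 0.028. The remaining 3 members overlapped between the groups. Gata4 was at 28.0, 28.0 and 25.8 FPKM in TAC+PUE hearts, against 22.4, 29.5 and 29.9 FPKM in TAC hearts, with a log2 fold change of 0.01 (SE 0.16). Gata6 was at 21.8, 26.6 and 22.5 FPKM in TAC+PUE hearts, against 20.1, 24.7 and 24.1 FPKM in TAC hearts, with a log2 fold change of 0.04 (SE 0.15). Hand2 was at 18.5, 31.0 and 20.2 FPKM in TAC+PUE hearts, against 23.2, 20.8 and 29.2 FPKM in TAC hearts, with a log2 fold change of −0.09 (SE 0.21), and it passed under none of the 4 scalings (−0.43 to −0.09). For both GATA factors the sign changed between scalings, from −0.33 to 0.01 for Gata4 and from −0.30 to 0.04 for Gata6, and Gata4 passed at −0.33 when scaled by median ratios (adjusted p = 0.041).

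The third comparison sets TAC+PUE against sham hearts, whose values stand in separate tables with the same TAC columns. Of the 10 members 1 rose and none fell in limma, beside 14.6% of all 11931 genes higher and 2.7% lower, 17.3% in all. At an unadjusted p under 0.05 the numbers were 4 and 0, beside 29.3% and 7.72% of all genes. The members' median log2 fold change was 0.24, beside 0.11 for all genes. Removal of the rRNA-like transcripts gave 3700 genes higher and 144 lower, and median-ratio scaling 883 and 763, against 1738 and 322 as deposited. Nkx2-5 was the member called, at 31.0, 42.3 and 29.7 FPKM in TAC+PUE hearts, against 20.6, 25.5 and 18.9 FPKM in sham hearts. Its ranges were apart, with a log2 fold change of 0.63 (SE 0.16, adjusted p = 0.038). It did not pass with median-ratio scaling (0.49, adjusted p = 0.067), with rRNA-like and mitochondrial transcripts removed (0.46, adjusted p = 0.061) or without TAC+PUE replicate 2 (0.48), TAC+PUE replicate 3 (0.73), sham replicate 1 (0.60) or sham replicate 3 (0.54). Without the 2 TAC+PUE hearts high in Myl7 only TAC+PUE replicate 1 is left beside the 3 sham hearts, with values of 0.51 for Nkx2-5 and 0.56 for Tbx20, and no call is drawn from a single heart.

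Srf, Gata6 and Gata4 were likewise higher in each TAC+PUE heart than in each sham heart without passing. With Nkx2-5 they make 4 members apart and higher and 0 apart and lower, beside 32.5% and 10.1% of all genes, 42.6% in all. Their log2 fold changes were 0.42 for Srf (SE 0.12, adjusted p = 0.058), 0.33 for Gata6 (SE 0.10, adjusted p = 0.057) and 0.75 for Gata4 (SE 0.31, adjusted p = 0.13). Mef2a had a log2 fold change of −0.03 (SE 0.10) and Mef2c of −0.24 (SE 0.16), with overlapping ranges. Tbx20 (0.29), Mef2d (0.20), Hand2 (0.14) and Myocd (0.09) overlapped as well. With the rRNA-like transcripts removed 5 members passed: Nkx2-5 (0.81), Srf (0.59), Gata6 (0.51), Tbx20 (0.46) and Mef2d (0.38). Without TAC+PUE replicate 1, Srf passed at 0.48 (adjusted p = 0.038) and Gata6 at 0.39 (adjusted p = 0.033). Of the other 5 members none passed under any of the 4 scalings. A p above the threshold does not show that TAC+PUE and sham hearts were alike, and with 3 hearts a group the test is limited.

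Ratios of 2 members within a heart do not depend on how libraries are scaled, so 8 ratios were compared in the 3 comparisons. With 3 hearts a group the exact permutation test cannot give a p below 0.10, and none of the 24 comparisons passed after adjustment (0.22 for each at the smallest p). Myocd over Srf was 0.595, 0.377 and 0.514 in TAC+PUE hearts, 0.237, 0.289 and 0.301 in TAC hearts and 0.647, 0.579 and 0.628 in sham hearts. All 3 TAC hearts were below all others. The mean log2 difference was −1.17 (SE 0.12) for TAC against sham and 0.83 (SE 0.22) for TAC+PUE against TAC. Tbx20 over Gata4 was 0.786, 0.538 and 0.691 in TAC+PUE hearts, 0.358, 0.348 and 0.379 in TAC hearts and 0.757, 0.601 and 1.79 in sham hearts, where the 1.79 is sham replicate 3 with its low Gata4. The TAC hearts were again below all others. Nkx2-5 over Gata4 was 1.11, 1.51 and 1.15 in TAC+PUE hearts, below the 2.14, 1.88 and 1.82 of TAC hearts.

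The makeup of the MEF2 family was described by shares. Mef2d made up 67.4 to 70.3% of the summed FPKM of the 3 genes in TAC+PUE hearts, 75.5 to 80.5% in TAC hearts and 62.6 to 66.6% in sham hearts, so that no group overlapped with another. The share of Mef2a was 22.1 to 26.1% in TAC+PUE, 14.6 to 20.7% in TAC and 25.9 to 28.0% in sham, and that of Mef2c was 4.95 to 7.62%, 3.80 to 4.91% and 7.59 to 9.38%. Mef2a over Mef2d averaged 0.357 ± 0.038 in TAC+PUE, 0.224 ± 0.046 in TAC and 0.422 ± 0.030 in sham, and Mef2d over Mef2c averaged 11.2 ± 2.5, 18.8 ± 2.1 and 7.59 ± 1.07 (SD, n = 3 each). Both ratios were apart between all groups, and neither passed the exact permutation test after adjustment (0.22 in each comparison). Mef2a over Mef2c overlapped between all groups. The MEF2 genes are paralogs, and how reads shared between them were assigned is not stated, so the split among them carries this uncertainty. In all, ranges were apart for 4 of 8 ratios in TAC against sham, 5 of 8 in TAC+PUE against TAC and 2 of 8 in TAC+PUE against sham.

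**Figure D3:**
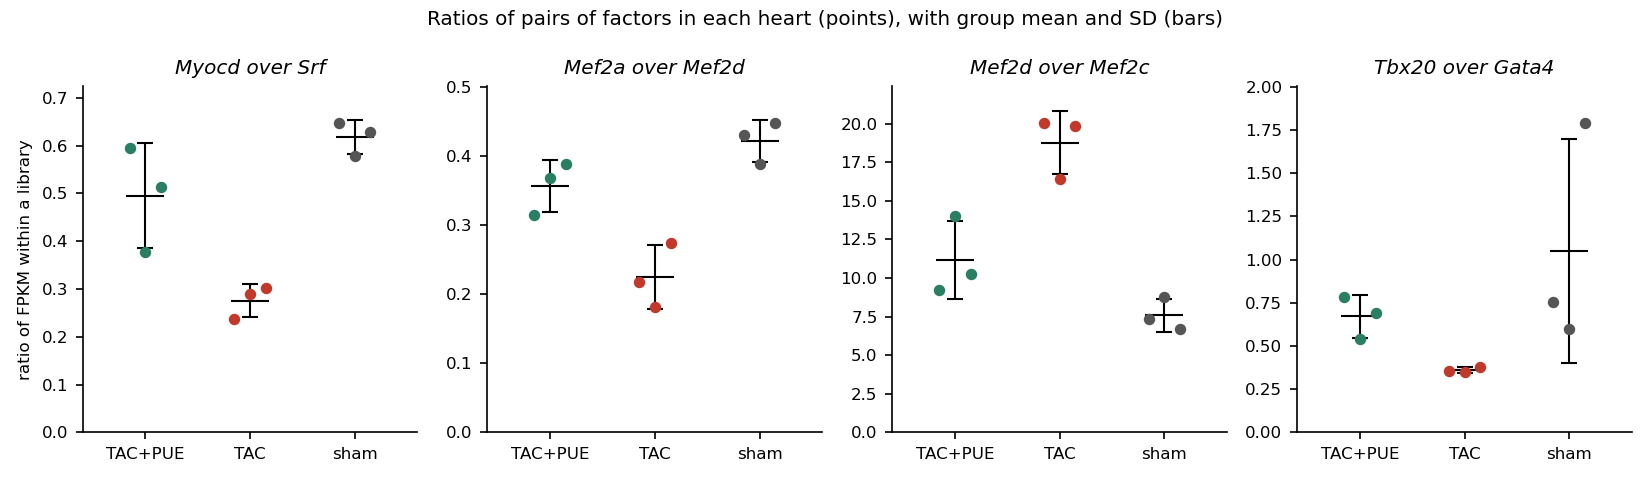
Ratio of the FPKM of 2 members within each heart (vertical axes, from 0) in TAC+PUE, TAC and sham hearts; points are single hearts, the wide bar is the group mean and the error bar the SD (n = 3). Myocd over Srf, Mef2a over Mef2d and Tbx20 over Gata4 are lowest in the 3 TAC hearts, and Mef2d over Mef2c is highest in them.

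The known targets and partners of the factors were read from lists whose genes may also answer to other factors. These lists were chosen with earlier results of these data known, so their counts are a description. Among the SRF targets of the actin cytoskeleton and contractile apparatus 10 of 14 tested rose and 3 fell in TAC hearts, beside 25.3% and 37.7% of all genes, with a median log2 fold change of 0.69, beside −0.12 for all genes. Acta1, the skeletal actin of the fetal programme, had 612.9 to 1134 FPKM in TAC hearts, against 151.9 to 180.9 FPKM in sham hearts (log2 fold change 2.27, SE 0.21). Zyx, a focal adhesion protein, rose by 1.22 on the log2 scale. Lmod2, which lengthens the thin filaments of the sarcomere, fell by 1.06, and Acta2, the smooth muscle actin, fell by 0.54. Of 7 immediate early SRF targets, Srf itself included, 4 rose and none fell, in limma and at an unadjusted p under 0.05 alike, led by the growth response genes Ier2 (1.50) and Junb (1.21). The summed FPKM of 7 smooth muscle markers, 3 of which are among the genes just tested, was 618 to 666 in TAC and 398 to 451 in sham hearts. Des made up most of this sum, at 488.6 to 572.0 FPKM in TAC and 308.0 to 353.8 FPKM in sham hearts. Of the 5 smooth muscle markers tested 4 rose and Acta2 fell. The sum of 7 fibroblast markers was 237 to 259 in TAC and 140.0 to 146.9 in sham hearts, and that of 7 macrophage markers 282 to 332 and 141 to 154. The sum of 7 endothelial markers was 178.8 to 221.3 in TAC and 216.4 to 234.9 in sham hearts, with overlap. These lists did not move as one: of the fibroblast markers Col1a1 (2.18), Col1a2 (1.82) and Tcf21 (0.77) rose and Dcn (−0.62) and Lum (−1.11) fell, with a list median of −0.19, and of the endothelial markers 2 rose and 4 fell. Of the macrophage markers 4 rose, Mrc1 (−0.57) fell, and Adgre1 (0.01) and Cd68 (−0.13) did not pass. Most of the macrophage sum was C1qa and C1qb, at 120.0 to 147.3 and 111.7 to 126.5 FPKM in TAC hearts. The part of these cell types in the counts was not tested.

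Of 12 MEF2 targets 4 rose, 5 fell and 3 did not pass in TAC hearts, close to the 25.3% and 37.7% of all genes, with a median log2 fold change of −0.26, beside −0.12. Ppargc1a, a coactivator of mitochondrial genes, fell by 1.45 and Xirp2, a protein of the intercalated disc, fell by 1.26, whereas its relative Xirp1 rose by 0.68 and the muscle creatine kinase Ckm by 0.60. Of 12 targets of GATA4 and NKX2-5, 6 rose and 4 fell, with a median of 0.23. Nppa, which encodes atrial natriuretic peptide and is also 1 of the 7 atrial markers, rose by 2.93 (SE 0.14), with 477.6 to 620.6 FPKM in TAC hearts and 70.4 to 74.9 FPKM in sham hearts. Nppb, the second natriuretic peptide, rose by 1.49, while the muscarinic receptor Chrm2 fell by 1.59 and Corin, the protease that activates natriuretic peptides, fell by 0.78. The part of atrial tissue in these values was not tested.

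Among 19 other cardiac transcription factors tested, 4 rose and 5 fell in TAC hearts, led by the ventricular factor Irx4 (0.92) and the T-box repressor Tbx2 (0.75) among those that rose. The homeobox factor Prox1 (−0.73) was among those that fell. Of 24 cofactors and repressors 7 rose and 7 fell. Of all genes 25.3% rose and 37.7% fell, so neither list stands out by its counts. Zfpm1, a partner of GATA factors, rose by 1.16 and the calcineurin-responsive factor Nfatc4 by 0.75. Hdac9, a class IIa deacetylase that holds MEF2 in check and is itself a MEF2 target, fell by 0.89, with 0.679 to 1.20 FPKM in TAC hearts and 2.34 to 2.68 FPKM in sham hearts, and Nfatc3 fell by 0.78.

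In TAC+PUE against TAC most of these genes did not pass the test, and the counts stand beside 32.9% of all genes higher and 5.45% lower. Of 14 actin and contractile SRF targets 2 rose, the myosin light chain Myl9 (0.84) and Lmod2 (0.67), and the tropomyosin Tpm1 fell by 0.72. Myl9 overlapped, at 18.8, 44.6 and 45.6 FPKM in TAC+PUE hearts, against 22.8, 14.9 and 18.4 FPKM in TAC hearts. Of 7 immediate early targets Ctgf rose by 1.06 and Ier2 fell by 0.63, and the ranges of both overlapped between the groups. Among MEF2 targets 4 of 12 rose, led by Xirp2 (2.18) and Ppargc1a (0.99), and Ckm fell by 0.55. Xirp2 had 201.3 to 391.8 FPKM in TAC+PUE hearts, against 40.4 to 78.2 FPKM in TAC hearts, and the groups were far apart. Of 12 GATA4 and NKX2-5 targets 3 rose and 2 fell: Chrm2 rose by 1.20 and the gap junction protein Gja1 by 0.66, while the troponins Tnni3 and Tnnc1 fell by 1.08 and 0.66. Nppa had 576.9 to 2756 FPKM in TAC+PUE hearts, against 477.6 to 620.6 FPKM in TAC hearts, and its ranges overlapped. Of 18 other cardiac factors 4 rose, with Tbx5 (0.78) first, and Irx3 (−0.72) and Irx4 (−0.46) fell. Tbx5 overlapped, at 5.15, 9.65 and 8.90 FPKM in TAC+PUE hearts, against 3.38, 2.88 and 6.46 FPKM in TAC hearts. Its highest values were in the hearts high in Myl7, TAC+PUE replicates 2 and 3 and TAC replicate 3. The part of atrial tissue in these values was not tested here either. Of 24 cofactors 8 rose and none fell in limma (9 and 0 at an unadjusted p under 0.05), a share close to that of all genes, led by Mkl2 (0.82), a relative of myocardin, and the osmotic stress factor Nfat5 (0.81). The list medians ran from 0.07 for cofactors to 0.30 for other cardiac factors, beside 0.24 for all genes.

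Against sham hearts, where 14.6% of all genes were higher and 2.7% lower, TAC+PUE hearts had 7 of 14 actin and contractile SRF targets higher and 1 lower, with Acta1 at a log2 fold change of 2.73 and Myl9 at 1.90, and Lmod2 at −0.39. Of 7 immediate early targets 2 were higher, Junb (1.07) and Ier2 (0.86), and none lower with or without adjustment in limma. MEF2 targets had 3 of 12 higher, with Xirp2 (0.93) and the small heat shock protein Hspb7 (0.65) first, and none lower in limma (1 at an unadjusted p under 0.05). GATA4 and NKX2-5 targets had 3 of 12 higher, with Nppa at 3.96 and Nppb at 1.44, and Corin lower at −0.32. Other cardiac factors had 2 of 19 higher, Irx5 (0.50) and Irx4 (0.45), and cofactors had 5 of 24 higher, with Zfpm1 at 0.91 and Nfatc4 at 0.55, and neither list had a gene that fell in limma. At an unadjusted p under 0.05, 2 of the other factors and 0 of the cofactors were lower.

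**Figure D4:**
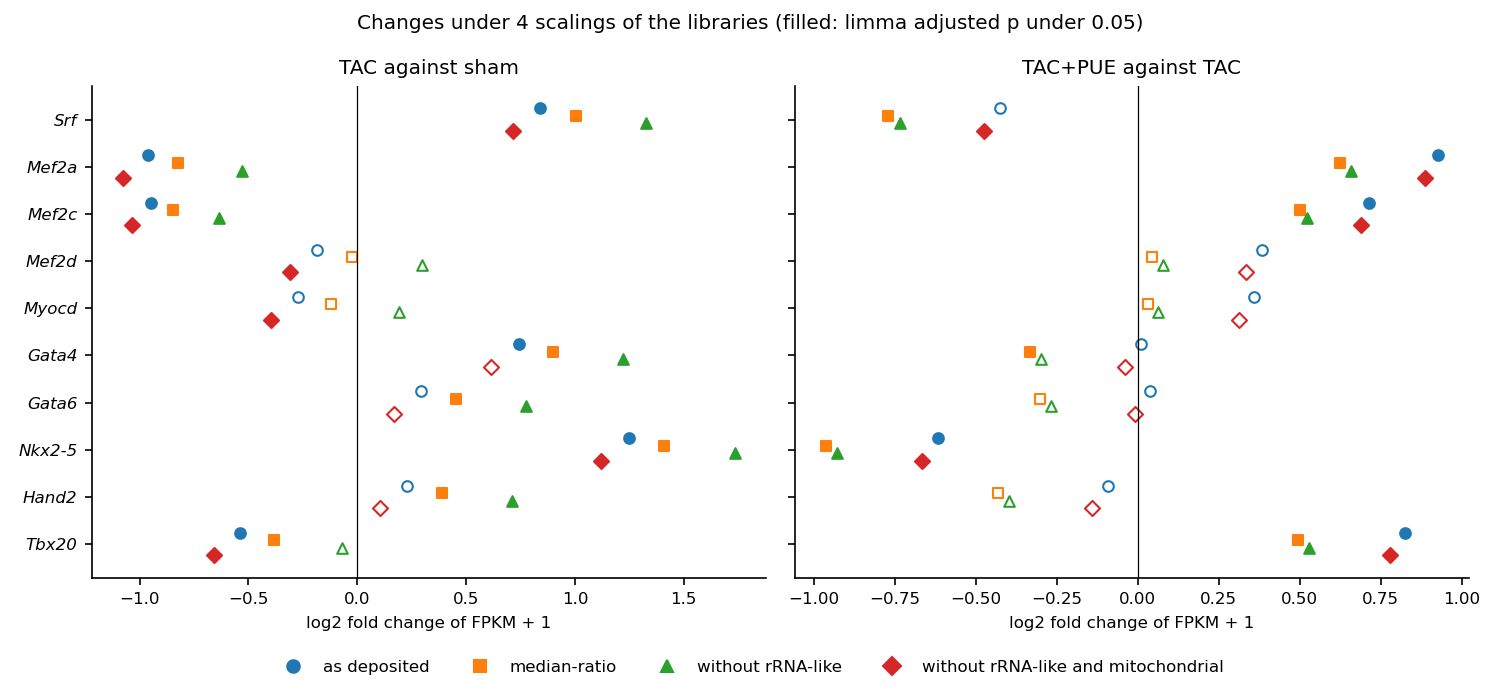
Log2 fold change of FPKM + 1 (horizontal axis) of each member under 4 scalings of the libraries, for TAC against sham and TAC+PUE against TAC; filled symbols have a limma adjusted p under 0.05. Srf and Nkx2-5 stay right of 0 and Mef2a and Mef2c left of it in the first comparison under every scaling, while Mef2d and Myocd cross 0 there and Gata4 and Gata6 cross it in the second.

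Over all genes the change differed with the span of the gene. With spans from the RefSeq table of GRCm38.p6, the median log2 fold change of TAC against sham was 0.35 for genes of up to 5 kb, 0.20 for 5 to 10 kb, 0.04 for 10 to 20 kb, −0.20 for 20 to 50 kb, −0.40 for 50 to 100 kb and −0.38 above 100 kb. For TAC+PUE against TAC the medians over the same classes were −0.02, 0.04, 0.14, 0.29, 0.43 and 0.41. Mef2a and Mef2c, which fell in TAC hearts, are in the longest class, with log2 fold changes below its lower quartile of −0.70. Nkx2-5 is in the second class and Srf in the third, and both rose beyond the upper quartiles of 0.59 and 0.45. Tbx20, at −0.54, lay within the quartiles of its class, −0.75 to 0.03, and Gata4 in the same class lay above them. In TAC+PUE against TAC Mef2a, Mef2c and Tbx20 lay above the upper quartiles of their classes (0.64, 0.64 and 0.69). Nkx2-5, Srf and Gata4 lay below the lower quartiles of theirs (−0.22, −0.13 and 0.13). The part of gene span in the members' values was not tested. Nor was it tested in the ratios: Myocd and Srf, Mef2a and Mef2d, and Mef2d and Mef2c are of unlike classes, whereas Tbx20 and Gata4 share a class.

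**Figure D5:**
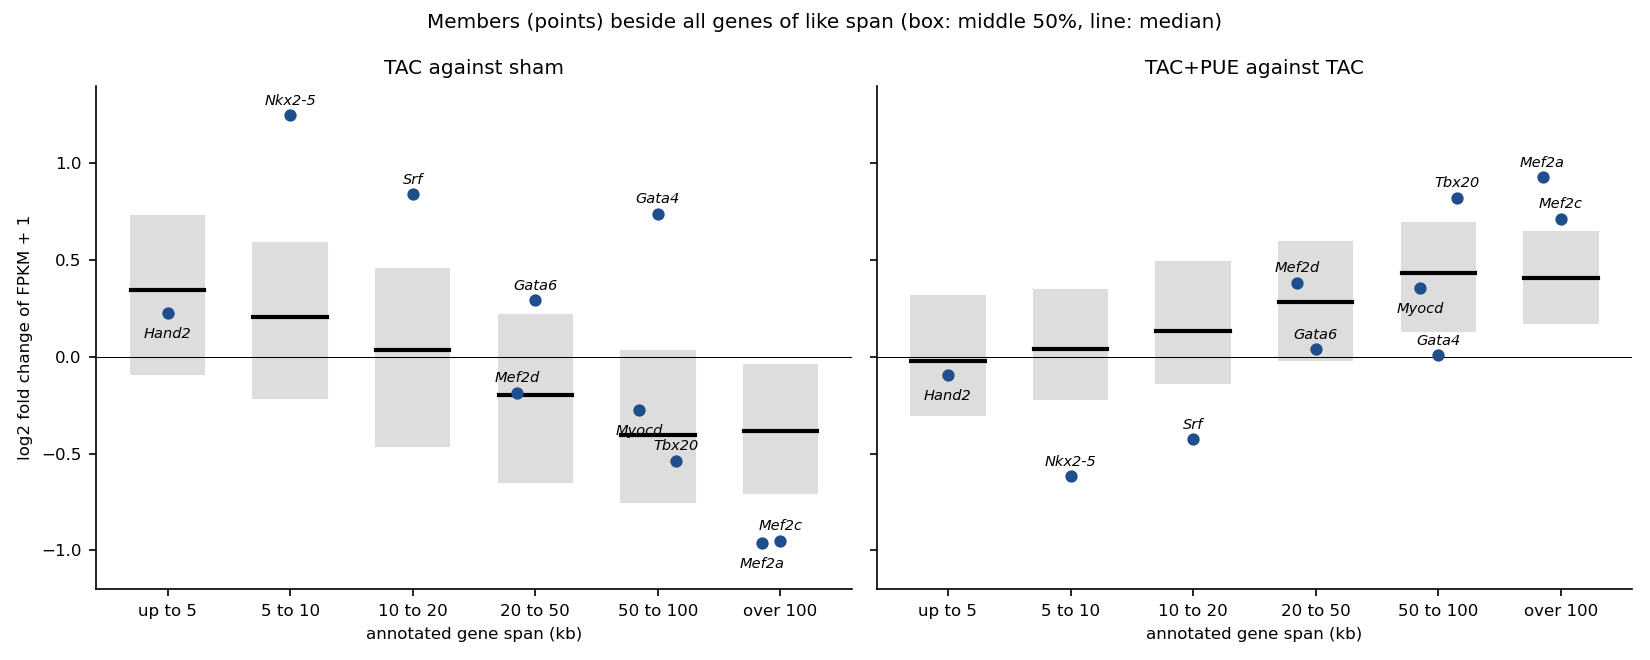
Log2 fold change of FPKM + 1 (vertical axis) of the 10 members (points) beside all tested genes of like annotated span (horizontal axis, kb), for TAC against sham and TAC+PUE against TAC; boxes are the middle 50% and lines the median. The medians run from 0.35 to −0.38 in the first comparison and from −0.02 to 0.41 in the second. Nkx2-5, Srf, Gata4, Mef2a and Mef2c lie outside their boxes in both comparisons.

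Finally, the genes with the profile most like each member over the 9 hearts were taken from 5685 genes with a mean of at least 5 FPKM, by the root mean square difference of centred log2(FPKM + 1). Rab11fip3, a binding protein of RAB11, was nearest to Srf with a difference of 0.034, where the profile of Srf itself had a spread of 0.36. It stood at 8.12, 10.9 and 8.53 FPKM in TAC+PUE hearts, 13.0, 13.1 and 12.3 FPKM in TAC hearts and 6.31, 7.44 and 6.12 FPKM in sham hearts. Ubtd1 was nearest to Nkx2-5 (0.054), Clec2d and Rgs2 to Mef2a (0.070 and 0.081), and Fbxo3 and Arl8b to Mef2c (0.064 and 0.065). Clic4 and Kpnb1 were nearest to Myocd (0.036 and 0.041), Sdccag3 and Foxk2 to Mef2d (0.043 and 0.061), and Puf60 and Ostf1 to Gata6 (0.037 and 0.038). Dnal4 was the second gene near Srf (0.054). Hand2 with Rps6ka2 and Dyrk1b (0.098 and 0.099) and Tbx20 with Dctn5 and Qrich1 (0.093 and 0.10) had less close neighbours. Gata4 had the least close ones, Txndc5 (0.17) and Jpt1 (0.26), and Txndc5 was also low in sham replicate 3, at 5.47 FPKM, against 10.9 and 11.6 FPKM in the other sham hearts. The measure is a description over 9 hearts that share their groups and libraries, and it says nothing of shared function or control.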

How the data were processed

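Hearts of 3 TAC+PUE, 3 TAC and 3 sham mice were grouped by the labels. Per the study's methods, stranded libraries were sequenced as paired ends, aligned with Hisat2, assembled and quantified with StringTie, and expression values taken with Ballgown. The submitters' processing notes name the build mm9, and versions and annotation are not given in the sources used here. The authors deposited FPKM per gene in a table of TAC and sham and a table of TAC+PUE and TAC, with identical TAC values in both. A gene's larger group mean is nowhere below 0.500 FPKM. A further 24 columns of per-sample values, in 4 lncRNA lists, were not used. Depth is unknown: among 1394 low genes at most 5 shared 1 ratio between libraries, so whole reads could not be recovered and counts were not modelled. Counting by strand is not stated, so genes that overlap others or have close paralogs are uncertain.

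Tests used limma 3.58.1 (R 4.3.3), eBayes with trend, on log2(FPKM + 1), 3 libraries against 3, over genes that reached 1 FPKM in 3 or more of the 6 libraries. Tests were two-sided, and p-values were adjusted after Benjamini and Hochberg over all genes tested, with a threshold of 0.05. Fold changes on this scale understate those of low genes. Ratios of members were compared by two-sided exact permutation tests adjusted over 24 comparisons. Scripts used Python 3.11.15, numpy 2.4.6, pandas 2.3.3, scipy 1.17.1 and matplotlib 3.10.9, and the limma script was tested on simulated data. The members and gene lists were chosen with earlier results of these data known. Mrtfa, Mrtfb, Ccn1 and Ccn2 are in the tables under the older names Mkl1, Mkl2, Cyr61 and Ctgf. Of each gene list and comparison, up to 2 called genes per direction with the largest change were named, and for each member the 2 genes of nearest profile, leaving out predicted and clone names; Acta1, Nppa, Xirp2 and Hdac9 were given with FPKM. Some genes that this rule names are not reported here. Alternatives were other pseudocounts, no filter, eBayes without trend, 3 scalings, a fit of all 9 libraries at once, a block for the replicate number, and the omission of single libraries or of those with Myl7 of at least 100 FPKM. Promoter sequences are from RefSeq on GRCm38.p6, whose coordinates were not joined to the mm9 tables.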

Additional observations from a re-analysis of the deposited data

How the results depend on the processing

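In TAC against sham the rises of Srf and Nkx2-5 and the falls of Mef2a and Mef2c kept their direction and passed under all 16 alternatives, 2 of which leave out the same heart (TAC replicate 3). The rises of Mef2a and Tbx20 in TAC+PUE against TAC passed under the 15 that leave at least 2 hearts a group. The cause of the other shifts was not tested. Depth is unknown, and 3 hearts a group limit every call.

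With the rRNA-like transcripts removed, TAC against sham had 5 members higher, and 5746 genes higher and 2410 lower, Mef2d was at 0.30 and Myocd at 0.19. TAC+PUE against TAC then had 2 members lower, 2303 genes higher and 2201 lower, with Gata4 at −0.30 and Gata6 at −0.27. TAC+PUE against sham had 5 members, 3700 genes higher and 144 lower, with Mef2a at 0.13. With median-ratio scaling 5 members rose in TAC against sham. In TAC+PUE against TAC 3 members were lower, 2111 genes higher and 2648 lower, with Gata4 at −0.33 and Gata6 at −0.30, and in TAC+PUE against sham 0 members, 883 genes higher and 763 lower, with Myocd at −0.053 and Hand2 at −0.0053. With mitochondrial mRNAs removed as well, TAC against sham had 5 members lower, TAC+PUE against TAC had 2 members and 1039 genes lower, with Gata4 at −0.039 and Gata6 at −0.0098, and TAC+PUE against sham had 0 members higher, 884 genes higher and 713 lower, with Myocd at −0.084 and Hand2 at −0.038. The joint fit of 9 libraries gave 5 members higher and 2 lower in TAC+PUE against TAC and 178 genes lower in TAC+PUE against sham, and eBayes without trend gave 2 members lower in TAC+PUE against TAC. Without the libraries high in Myl7 the TAC+PUE group holds 1 heart, assumed to vary like the others, beside 2 TAC or 3 sham hearts, so its calls say nothing of stability: 0 members were lower in TAC+PUE against TAC, with Gata6 at −0.032, and TAC+PUE against sham had 895 genes higher and 201 lower, with Mef2c at 0.016 and Hand2 at −0.14.

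Leaving out 1 library at a time gave 0 to 2 members lower, 2578 to 4312 genes higher and 268 to 840 lower in TAC+PUE against TAC, and 0 to 3 members higher, 361 to 2682 genes higher and 40 to 1019 lower in TAC+PUE against sham. Signs changed among members that had not passed: in TAC+PUE against TAC Gata4 ran from −0.12 to 0.080, Gata6 from −0.050 to 0.093 and Hand2 from −0.31 to 0.049, and in TAC+PUE against sham Mef2a ran from −0.12 to 0.021 and Hand2 from −0.081 to 0.28. The log2 ratios did so for Mef2a over Mef2c (−0.32 to 0.14), Gata4 over Gata6 (−0.11 to 0.038) and Hand2 over Gata4 (−0.31 to 0.058) in TAC+PUE against TAC and for Nkx2-5 over Gata4 (−0.34 to 0.21) in TAC+PUE against sham.

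The replicate numbers are shared by the groups but not every pair of same-numbered hearts deviated together, with correlations of −0.02 to 0.06, −0.26 to 0.19 and 0.04 to 0.30 in the 3 comparisons. With the number as a replicate block the counts in TAC against sham and TAC+PUE against TAC moved by less than 1.5 times. In TAC+PUE against sham 3 members were higher, Srf and Gata6 added, and 529 genes lower. In the block fit of TAC against sham, and in the fit of TAC+PUE against TAC without the libraries high in Myl7, limma gave genes of like level 1 common variance, so that a gene's own spread did not enter.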
